A study of Mus musculus with 2 samples.

Results

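Zp3-high oocytes are the cells of the newborn mouse ovary in which transcripts of Zp3, a structural protein of the egg coat, make up at least 0.05% of all RNA molecules counted. They were selected on measured values. A cell was kept if it held at least 500 detected genes and at most 10% mitochondrial UMIs. UMIs are unique molecular identifiers, each of which stands for 1 captured RNA molecule. A kept cell was called an oocyte if at least 3 of Ddx4, Dazl, Figla, Ooep, Sohlh1, Padi6 and Sycp3 were detected, if these 7 genes made up at least 0.1% of its UMIs, and if it held at least 10000 UMIs in all. Of 8941 cells in both libraries, 8202 were kept, 703 were oocytes and 404 of these were Zp3-high, with 166 in replicate 1 and 238 in replicate 2. The remaining 299 oocytes, 62 in replicate 1 and 237 in replicate 2, are called Zp3-low.

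The study used single-cell RNA sequencing of ovaries to locate transcripts of long-lived proteins among ovarian cell types. Both libraries were made from whole ovaries of female CD1 mice at postnatal day 2, and each pooled 6 ovaries from 3 pups of a single pregnant female. No treatment or genotype was compared, so the comparisons below are between classes of cells within these libraries. The pooled pups cannot be told apart, and n is 2 libraries throughout. The libraries held 54471790 and 59074480 UMIs in 4094 and 4847 cells. A total of 21 cell barcodes occurred in both libraries, and 4 Zp3-high cells carried such a barcode.

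At birth, mouse oocytes are arrested at the end of meiotic prophase and become enclosed by flattened granulosa cells as primordial follicles. A few oocytes, mostly near the centre of the ovary, start to grow within the first days and build up a store of maternal RNA and protein. Growing oocytes secrete the zona pellucida, a glycoprotein coat made in mice of ZP1, ZP2 and ZP3. The transcription factor FIGLA binds short DNA sequences called E-boxes, with the letters CANNTG, in the promoters of zona genes.

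The label was checked against Zp3, Ooep, Padi6, Gdf9 and Figla. Zp3, Ooep, Padi6 and Figla belong to the rule, so only Gdf9, a growth factor that oocytes send to granulosa cells, is an independent marker. Gdf9 was detected in 100% of the Zp3-high cells of both libraries. It was detected in 91.94% and 91.98% of the Zp3-low oocytes of replicates 1 and 2, and in 2.04% and 2.22% of somatic cells, defined as kept cells with fewer than 3 of the 7 oocyte genes and a share of these genes under 0.1%. Zp3 itself had at least 1 UMI in 90.3% and 84.4% of Zp3-low oocytes and in 4.25% and 3.13% of somatic cells. A share at or below that of somatic cells is not read as expression, and the source of the Zp3 UMIs in somatic cells was not tested. The highest Zp3 share of a somatic cell was 0.0332% in replicate 1 and 0.163% in replicate 2. At a median of 8420 and 5882.5 UMIs, somatic cells were far shallower than the oocytes. With every cell thinned to 10000 UMIs, which left out 2204 and 2754 shallower somatic cells and no oocyte, Gdf9 was found in 95.8% and 96.6% of Zp3-high cells, in 72.6% and 82.7% of Zp3-low cells and in 1.54% and 2.24% of somatic cells.

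Zp3-high cells held more RNA than the other oocytes. Their median was 86100.5 UMIs in replicate 1, with a range of 18584 to 126837, and 69183 UMIs in replicate 2, with a range of 10006 to 115634. Zp3-low oocytes had medians of 59088 and 52895 UMIs, so that the ratio of medians was 1.46 and 1.31 in the 2 libraries. The ranges of both classes overlapped widely, with Zp3-low cells reaching 97254 and 97143 UMIs. Genes per cell differed less, with medians of 8480 and 7874 against 7601.5 and 7139. After thinning to 10000 UMIs no such difference was seen, with medians of 3461 and 3384.5 genes in Zp3-high against 3465 and 3395 in Zp3-low cells. The 404 cells carried 26.1% and 27.1% of the UMIs of all kept cells in replicates 1 and 2. The mitochondrial share of UMIs had a median of 2.32% and 2.45% in Zp3-high and of 3.10% and 3.20% in Zp3-low oocytes. As cells are not replicates, these values carry no test.

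**Figure D1:**
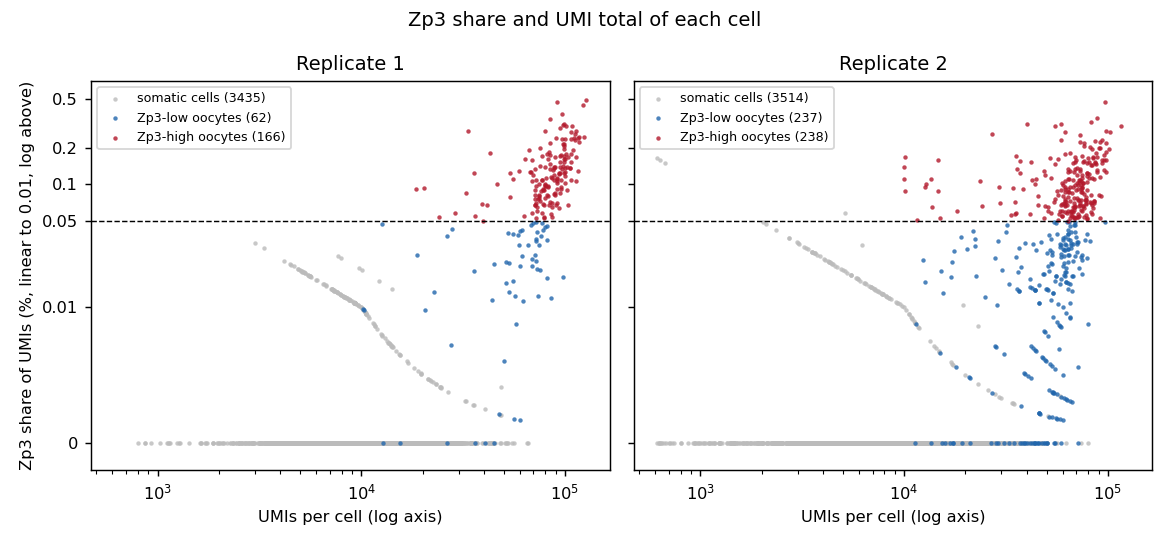
Each point is a cell, with its total UMIs on a log axis and the share of Zp3 in its UMIs in percent, which is linear up to 0.01% and logarithmic above, in replicate 1 (left) and replicate 2 (right). Zp3-high oocytes lie above the dashed line at 0.05% with medians of 86100.5 and 69183 UMIs, Zp3-low oocytes lie below it, and somatic cells mostly lie at 0 or on the curves that single UMIs draw.

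The Zp3 share was spread continuously across the threshold, with no gap in either library. Its median in Zp3-high cells was 0.118% in replicate 1 and 0.0942% in replicate 2, with maxima of 0.488% and 0.468%. The lowest Zp3-high cells stood at 0.0506% and 0.0504% and the highest Zp3-low cells at 0.0497% and 0.0498%. Between 0.04% and 0.06% lay 12 Zp3-high and 13 Zp3-low cells in replicate 1 and 34 and 15 in replicate 2. No Zp3 UMI was found in 6 and 37 of the Zp3-low cells. Zp3-high cells made up 72.8% of the oocytes in replicate 1 (166 of 228, exact 95% binomial interval 66.5% to 78.5%) and 50.1% in replicate 2 (238 of 475, 45.5% to 54.7%). These intervals cover counting error only and did not overlap.

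For the comparison of Zp3-high with Zp3-low oocytes, the UMIs of all cells of a class in a library were summed, and the 4 sums were compared by edgeR's quasi-likelihood test with Benjamini-Hochberg adjustment over 13442 genes. Of the genes tested, 77 (0.573%) were higher and 9 (0.067%) lower in Zp3-high oocytes at an adjusted p below 0.05. The 77 include Zp3, whose difference the threshold fixed, and Padi6, 1 of the genes that chose the oocytes. Both classes of a library come from the same droplet run and pups, and with the library as a block 2187 genes (16.3%) were higher and 1755 (13.1%) lower, among them all 86 genes called without the block. The genes called with the block further include Ooep among the higher and Dazl among the lower, which also chose the oocytes. The median log2 fold change of all genes tested was -0.003. DESeq2 called 379 genes (2.82%) higher and 130 (0.967%) lower, and 2709 genes (20.2%) had an unadjusted p below 0.05 in edgeR without the block. In both libraries alike, 5001 genes (37.2%) were higher and 5155 (38.3%) lower in Zp3-high oocytes. The counts for gene lists below are to be read against these shares. A gene entered the test if at least 2 sums reached 0.777 CPM, and 567 genes did so only through the Zp3-high sums (both of these and at most 1 Zp3-low sum) and 440 only through the Zp3-low sums, 1 of the 77 and 1 of the 9 called genes among them. Such genes could hardly come out in the other direction, so they are left out of the counts for lists below and named where described. Of the other 12435 genes, 76 were higher and 8 lower without the block, and 2022 higher and 1677 lower with it. Both fits are therefore given below, first without and then with the block. The Zp3-high cells differed also in depth, and 85 of the 86 genes could be tested after every cell was thinned to 10000 UMIs, where 85 kept their direction and 59 passed without and 78 with the block. Among only the cells with 20000 to 60000 UMIs, 83 of the 86 could be tested, 83 kept their direction and 14 passed without and 81 with the block. Without the cells that a doublet score marked, which were 10 and 5 Zp3-high and 2 and 9 Zp3-low cells, 27 of the 86 passed without and 86 with the block. Without the marked cells, Zar1, Nlrp14, Kpna7, Gdf9, Oosp2, Tle6, Foxr1, Gm15389, Eed, Mageb4, Rpl10l, Pnrc1, Cspg5 and mt-Nd1, all described below, lost their calls without the block, at adjusted p-values from 0.0529 for Oosp2 to 0.0615 for Tle6, with log2 fold changes of 3.31 and 0.51 where all cells gave 3.27 and 0.51. The log2 fold changes of the others also stayed of similar size, with 3.93 for Zar1, 1.13 for Gdf9 and -0.72 for mt-Nd1 against 3.90, 1.13 and -0.70 in all cells. Of the other genes described below, BC049730, Glrx, Gstt2, Khdc3, Miox, Pou5f1, Slc23a3, Sult5a1 and Uhrf1 lost their calls without the block among cells with 20000 to 60000 UMIs, at adjusted p-values from 0.062 for Pou5f1 to 0.152 for Uhrf1. Their log2 fold changes there were of similar size, with 2.13 for Khdc3, 3.80 for Miox, 2.54 for Gstt2, 2.68 for Glrx and 1.41 for Pou5f1 against 2.03, 3.29, 2.25, 2.22 and 1.24 in all cells, and 3.56 for Slc23a3, 2.65 for Sult5a1, 0.92 for Uhrf1 and -1.13 for BC049730 against 3.83, 3.02, 0.97 and -1.25. Eif4e1b and H1foo lost theirs when the Zp3 threshold was set to 0.1%, at log2 fold changes of 3.39 and 1.24 (adjusted p = 0.0648 and 0.0698).

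**Figure D2:**
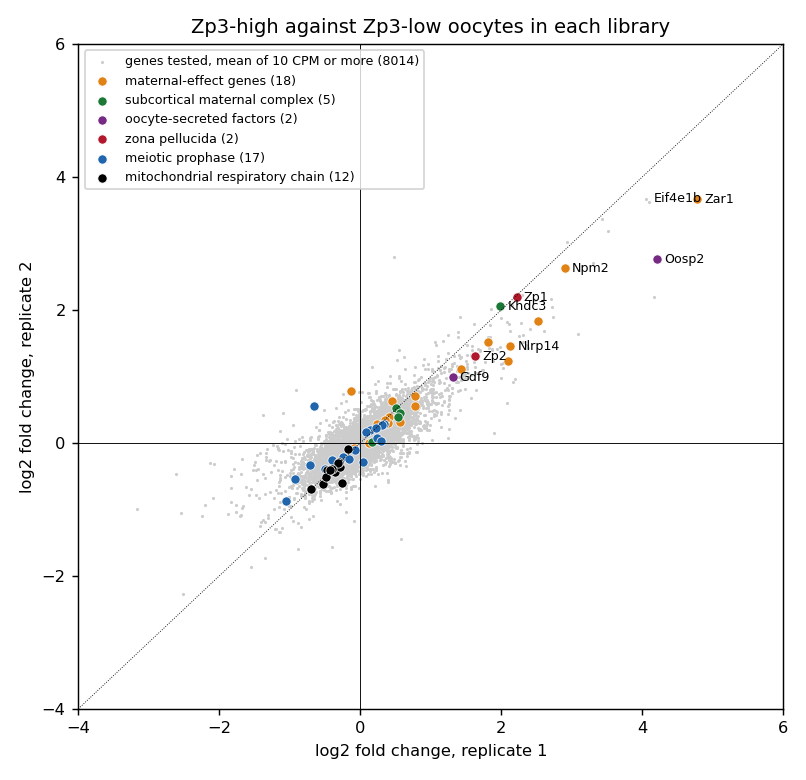
Log2 fold change of Zp3-high against Zp3-low oocytes in replicate 1 (horizontal) and replicate 2 (vertical) for the 8014 genes tested with a mean of at least 10 CPM outside the genes of the rule. Coloured points are genes of 6 lists, and the dotted line marks equal change, near which Zp1, Npm2 and Khdc3 lie in the upper right.

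Both zona pellucida genes outside the rule were higher in Zp3-high oocytes of both libraries, and 1 of them passed without the block. Zp1 (GRCm38 chr19:10914287-10920632), which crosslinks zona filaments, was at 374 and 384 CPM (counts per 1000000 UMIs of the scaled sum) in the Zp3-high sums of replicates 1 and 2 and at 80.2 and 83.8 CPM in the Zp3-low sums. The groups did not overlap, and the log2 fold change was 2.21 ± 0.08 (SE, adjusted p = 0.00639 and 1.29e-17 with the block). Zp2 (chr7:120126772-120145291), to which sperm bind, was at 897 and 1183 against 291 and 479 CPM. Its log2 fold change of 1.43 ± 0.26 missed the threshold without the block (adjusted p = 0.0835) and passed with it (1.21e-14). Replicate 2 was higher than replicate 1 in both classes. Zp3 (chr5:135980099-135988624), on which the cells were chosen, was at 1496 and 1220 against 251 and 183 CPM.

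The list of oocyte-secreted factors held 7 genes, of which Fgf8, Oosp1 and Oosp3 entered the test only through the Zp3-high sums. The other 4 were higher in both libraries, 2 passed without and 3 with the block, and their median log2 fold change was 0.90. Gdf9 was at 479 and 490 CPM against 193 and 247 CPM, a log2 fold change of 1.13 ± 0.13 (adjusted p = 0.0416 and 3e-12 with the block). Oosp2, a secreted protein of oocytes, was at 34.3 and 25.6 against 1.71 and 3.74 CPM, a log2 fold change of 3.27 ± 0.33 (0.0383 and 1.7e-10). Its neighbour Oosp1 had 183 UMIs in all Zp3-high cells and 1 UMI in all Zp3-low cells. As Oosp1 entered the test through the Zp3-high sums alone, these counts are a description only. Bmp15, the partner of Gdf9 in signalling to granulosa cells, was at 9.32 and 10.1 against 5.99 and 6.37 CPM, and passed only with the block (0.185 and 0.0157). Gdf9 was thus at a higher level relative to Zp3-low oocytes in both libraries, and the levels of Bmp15 in all 4 sums stayed at or below 10.1 CPM.

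As the counted genes of the zona, secreted factor and subcortical complex lists were higher in both libraries, the promoters of these lists were searched for the letters CANNTG (the E-box), its form CACCTG and TAATTG, a sequence bound by NOBOX, on both strands of the 250 bases before the RefSeq start (GRCm38.p6). Of 18 genes, 13 had an entry, with 17 promoters, and Zp1, Zp2, Gdf9, Fgf8 and Oosp3 had none. CANNTG was found in 16 of 17 promoters against 66.2% of all 32851 promoters, CACCTG in 7 of 17 promoters, of 6 genes, against 17.2%, and TAATTG in 1, that of Ooep, against 7.17%. CACCTG is 1 of the forms of CANNTG, so the counts overlap. The genes searched were not only the counted ones. They include Zp3, Ooep and Padi6 of the rule, Oosp1, which entered the test through the Zp3-high sums alone, and Nlrp2, which was not tested. Zbed3 gave more than 1 of the 7 promoters with CACCTG. The 6 genes with CACCTG had 8 matches, of which those between 51 and 78 bases before the start are shown, 1 for each gene, in the direction of the gene, with CACCTG or its reverse complement CAGGTG in capitals.
Zp3 (chr5:135980038-135980067, plus strand, 55 bases before the start): gcagagggaattCAGGTGggagggtgggcc
Padi6 (chr4:140742704-140742733, minus strand, 78 bases before the start): ctcctccaggctCACCTGtgaacccttaac
Khdc3 (chr9:73102308-73102337, plus strand, 78 bases before the start): tctcccccacccCAGGTGcagccagtgagg
Oosp1 (chr19:11691093-11691122, minus strand, 59 bases before the start): cttagttactccCACCTGcaggtcatctgc
Bmp6 (chr13:38345653-38345682, plus strand, 51 bases before the start): ctgcctaggacaCACCTGgctcactcagcc
Zbed3 (chr13:95324751-95324780, plus strand, 62 bases before the start): ggtttctctttcCACCTGgagcgtggaatg
Of the 6 sites shown, those of Zp3 and Padi6 lie before the gene as GENCODE annotates it. Those of Oosp1 and Bmp6 lie within annotated exons, and those of Khdc3 and Zbed3 within the annotated gene but outside exons, so for these 4 genes the RefSeq start used here is downstream of another annotated start. The other 2 matches were at 249 bases in Oosp1 and at 173 bases in another promoter of Zbed3, and both of these lie before the annotated gene. Bmp6, a growth factor of the BMP family, was at 6.45 and 5.23 against 3.99 and 3.48 CPM and passed in neither fit, so the matches included genes with and without a call. A match of letters is a description only, and binding was not measured.

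The subcortical maternal complex is a protein assembly under the membrane of the oocyte that the early embryo needs. Of its 8 listed genes, 5 were tested outside the rule, all 5 were higher in both libraries, and 2 passed without and 4 with the block, with a median log2 fold change of 0.50. Khdc3, also called Filia, was at 249.0 and 213.3 against 62.8 and 51.4 CPM, a log2 fold change of 2.03 ± 0.14 (adjusted p = 0.0159 and 5.61e-16 with the block). Tle6 rose less, from 611 and 613 to 868 and 880 CPM, a log2 fold change of 0.51 ± 0.06 (0.0499 and 2.67e-09). Nlrp5, known as MATER, was at 1341 and 1525 against 923 and 1170 CPM, a log2 fold change of 0.45 ± 0.13 (0.164 and 1.99e-08). Members of the complex thus differed in the size of the change, from 0.11 for Nlrp4f, at 215 and 135 against 192 and 135 CPM, to 2.03 for Khdc3. Ooep and Padi6, both used to choose oocytes but not to separate the classes, were at 3160 and 4445 against 1253 and 2100 CPM and at 1787 and 1761 against 642 and 845 CPM.

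Other maternal-effect genes, whose products the embryo inherits, were mostly higher in Zp3-high oocytes. Of 24 tested, Nlrp4a, Nlrp4c, Nlrp9b and Zar1l entered the test only through the Zp3-high sums. Of the other 20, 5 were called higher and none lower without the block, 15 higher and none lower with it, and 16 were higher in both libraries. By DESeq2, 11 were higher and none lower, and 14 of the 20 had an unadjusted p below 0.05 in edgeR, beside 20.2% of all genes tested. The median log2 fold change was 0.52. Zar1, which binds and stores maternal RNA, was at 199 and 265 CPM against 7.13 and 20.9 CPM, a log2 fold change of 3.90 ± 0.43 (adjusted p = 0.0387 and 1.26e-16 with the block). With the Zp3 threshold at 0.1%, Zar1 lost its call without the block, at 3.21 (adjusted p = 0.0681), below the 3.39 of Eif4e1b there. Npm2, a histone chaperone that organizes nucleoli and sperm chromatin, was at 486 and 518 against 64.8 and 83.8 CPM, a log2 fold change of 2.74 ± 0.14 (0.012 and 1.64e-18). Nlrp14 was at 459 and 422 against 105 and 154 CPM (log2 1.75), H1foo, the linker histone of oocytes, at 268 and 209 against 76.5 and 73.1 CPM (log2 1.68), and Kpna7, an importin of oocytes, at 26.9 and 25.8 against 4.57 and 7.22 CPM (log2 2.07), with adjusted p-values of 0.0383, 0.0285 and 0.0383.

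Dppa3 and Uchl1 were among the maternal-effect genes with smaller differences than the list median. Dppa3, which protects maternal DNA methylation in the zygote, was at 5463 and 5541 against 4179 and 4513 CPM, a log2 fold change of 0.34 ± 0.06 (adjusted p = 0.0869 and 5.09e-08 with the block). Uchl1, a ubiquitin hydrolase, was at 3410 and 3235 against 2892 and 2644 CPM (log2 0.26). Btg4, an adaptor for the decay of maternal RNA, was at 216 and 236 against 126 and 145 CPM (log2 0.74, 0.0625 and 1.93e-09), which is above that median. These 3 genes passed with the block only.

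The transcription factors that set up the oocyte programme went in both directions. Of 10 tested outside the rule, 1 was higher without the block, and 4 were higher and 2 lower with it, at a median log2 fold change of 0.18. In both libraries alike, 6 were higher and 4 lower. An unadjusted p below 0.05 in edgeR was found for 5 (against 20.2% of all genes), and 2 were higher by DESeq2 (against 2.82%). The gene called without the block was Pou5f1, the pluripotency factor OCT4, at 296 and 309 against 127 and 130 CPM, a log2 fold change of 1.24 ± 0.08 (adjusted p = 0.0125 and 1.74e-13 with the block). Nobox, which activates Gdf9 and Pou5f1 in oocytes, was at 631 and 611 against 439 and 478 CPM (log2 0.44, 0.0805 and 3.09e-07). Figla and Sohlh1, used to choose oocytes, were at 1126 and 1026 against 1110 and 1076 CPM and at 742 and 698 against 716 and 686 CPM, so the classes overlapped for both. Lhx8 was at 294 and 292 against 277 and 287 CPM, a log2 fold change of 0.06 that was -0.31 among cells with 20000 to 60000 UMIs. Foxo3, which holds primordial oocytes dormant, was at 117 and 119 against 139 and 129 CPM (log2 -0.18, 0.319 and 0.0382).

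RNA-binding proteins of germ cells gave 1 called rise of 13 tested outside the rule, and 9 with the block, at a median of 0.33. Eif4e1b, a cap-binding protein of oocytes that acts in the repression of stored RNA, was at 26.1 and 37.3 against 1.43 and 2.89 CPM, a log2 fold change of 3.69 ± 0.33 (adjusted p = 0.0287 and 1.15e-12 with the block). Ybx2, a main protein of stored oocyte RNA, was at 409 and 359 against 345 and 305 CPM (log2 0.24), and Cpeb1, which controls poly(A) tails, at 276 and 246 against 222 and 225 CPM (log2 0.22). Both passed only with the block (0.000414 and 0.00515). The germ cell genes Ddx4 and Dazl, which belong to the rule, were at 60.3 and 55.0 against 66.8 and 54.5 CPM and at 284 and 320 against 344 and 392 CPM.

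**Figure D3:**
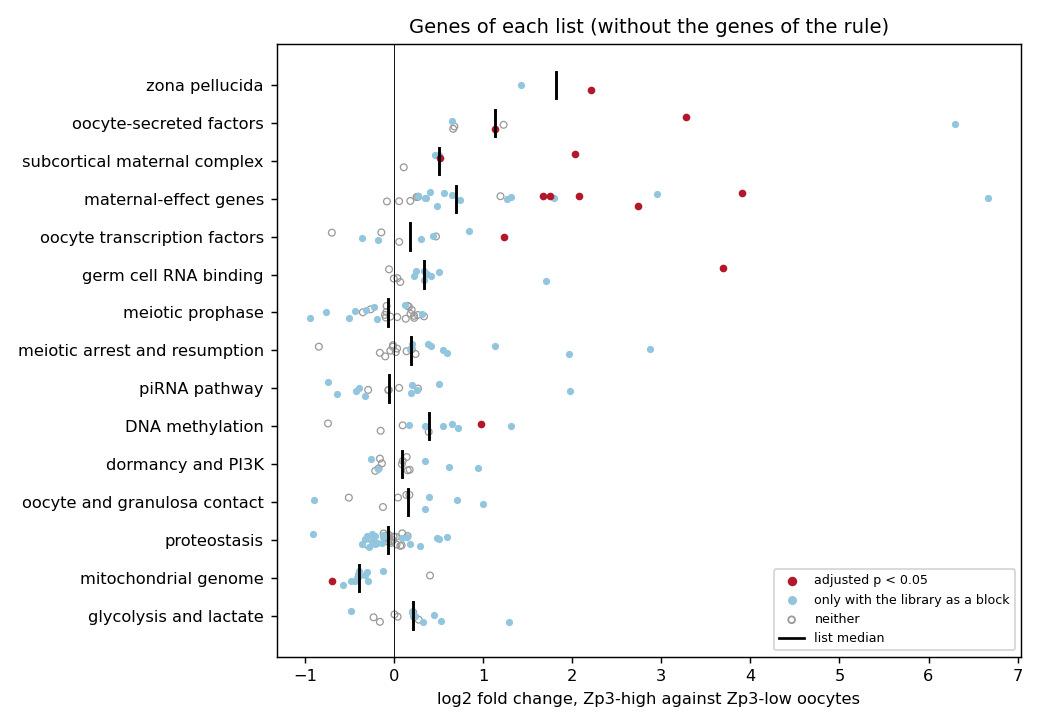
Log2 fold change of Zp3-high against Zp3-low oocytes for the tested genes of 15 lists without the genes of the rule and with those that entered the test through 1 class alone, with the list median as a bar. Red points passed at an adjusted p below 0.05 without the block, blue points only with it, and open points in neither fit. The medians run from -0.40 for the mitochondrial genome to 1.82 for the zona pellucida. With the genes that entered through 1 class alone, those of oocyte-secreted factors and maternal-effect genes were 1.13 and 0.69, against 0.90 and 0.52 without them.

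Among genes at 20 CPM or more, with the 8 genes that chose the cells left out, the 10 largest called rises were Zar1, Slc23a3, Eif4e1b, Miox, Oosp2, Sult5a1, Tubg2, Npm2, Gstt2 and Glrx. Slc23a3, of the ascorbate transporter family, was at 31.8 and 28.6 against 1.71 and 2.29 CPM, a log2 fold change of 3.83 ± 0.20 (adjusted p = 0.012 and 2.02e-12 with the block). Miox, the oxygenase that opens the ring of myo-inositol, was at 73.5 and 79.4 against 6.28 and 8.66 CPM (log2 3.29). Tubg2, a gamma-tubulin, was at 79.9 and 71.3 against 7.99 and 10.9 CPM (log2 2.95), and Sult5a1, a sulfotransferase, at 29.3 and 27.8 against 3.71 and 3.40 CPM (log2 3.02). The redox genes Gstt2, a glutathione transferase, and Glrx, a glutaredoxin, were at 80.3 and 90.6 against 14.3 and 20.4 CPM and at 64.9 and 81.2 against 13.1 and 17.3 CPM (log2 2.25 and 2.22). Glrx, Gstt2 and Sult5a1 were also found in somatic cells, at 45.1 and 51.0, 21.5 and 20.5, and 13.1 and 21.6 CPM.

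The called falls were fewer. Of the 9 genes, 8 met the rule for naming. Gm15389 was at 626 and 496 against 1386 and 1254 CPM and BC049730 at 50.3 and 47.8 against 112 and 121 CPM, log2 fold changes of -1.23 and -1.25 (adjusted p = 0.0383 and 0.0226). Eed, the subunit of Polycomb repressive complex that reads the histone mark it makes, was at 60.1 and 61.8 against 115 and 111 CPM, a log2 fold change of -0.89 ± 0.09 (0.0383 and 6.37e-09 with the block). Mageb4, Rpl10l, Pnrc1, Cspg5 and the mitochondrial mt-Nd1 fell by 0.96, 0.88, 0.81, 0.76 and 0.70 on the log2 scale. Rpl10l is a copy of Rpl10, so that reads could be split between them. The ninth gene, Tex101, named here after its values were seen, had 1 and 4 UMIs against 19 and 86 UMIs and entered the test only through the Zp3-low sums.

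Genes of meiotic prophase had a median close to 0. Of 26 tested outside the rule, none was called by edgeR or DESeq2, 3 (against 20.2% of all genes) had an unadjusted p below 0.05, and 2 were higher and 7 lower with the block, at a median log2 fold change of -0.06. Sycp1, the transverse filament protein of the synaptonemal complex that joins homologous chromosomes, was at 186 and 139 against 354 and 203 CPM, a log2 fold change of -0.77 ± 0.29 (adjusted p = 0.222 and 3.1e-08 with the block). Hormad1, of unsynapsed axes, was at 32.8 and 7.91 against 67.9 and 14.5 CPM (0.608 and 3.61e-06), so that the libraries differed more than the classes. Smc1b, the meiotic cohesin that has to last until the divisions, was at 525 and 622 against 414 and 510 CPM (log2 0.31, 0.279 and 9.49e-06). Sycp3, a gene of the rule, was at 1789 and 1343 against 1642 and 1424 CPM.

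For the later control of the meiotic arrest, Aurkc entered the test only through the Zp3-high sums. Of the other 19 genes none passed in edgeR without the block, 6 had an unadjusted p below 0.05, 1 was higher by DESeq2, and 8 were higher and none lower with the block. Cdc25b, the phosphatase that frees CDK1 at resumption, was at 39.1 and 42.2 against 6.28 and 13.1 CPM, a log2 fold change of 1.96 ± 0.30 (adjusted p = 0.0666 and 6.53e-09 with the block). Wee2, the oocyte kinase that opposes it, was at 40.9 and 49.2 against 22.5 and 35.9 CPM (log2 0.59, 0.243 and 0.000449). Mos, the kinase that holds eggs at metaphase, was at 44.4 and 47.3 against 36.0 and 41.2 CPM (log2 0.24) and passed in neither fit. In the piRNA pathway, which silences transposons, Piwil1 entered the test only through the Zp3-high sums. Of the other 14 none passed by edgeR or DESeq2, 3 had an unadjusted p below 0.05, and 4 were higher and 5 lower with the block, at a median of -0.06. Mael was at 510 and 623 against 408 and 537 CPM (log2 0.26) and Asz1 at 62.0 and 51.8 against 87.0 and 67.9 CPM (log2 -0.43), which passed with the block at 0.000102 and 0.000303.

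The DNA methylation machinery rose in part. Of 11 genes tested, 1 was higher without the block and 7 with it, none was lower in either fit, and the median log2 fold change was 0.39. Dnmt1, Dppa3 and Zfp57, which passed with the block, were also counted among the maternal-effect genes. The gene called was Uhrf1, which brings DNMT1 to hemimethylated DNA, at 241 and 238 against 117 and 127 CPM, a log2 fold change of 0.97 ± 0.08 (adjusted p = 0.0285 and 3.25e-11 with the block). Dnmt1, the maintenance methyltransferase, was at 153 and 98.5 against 56.8 and 45.8 CPM (log2 1.31, 0.0838 and 1.3e-10).

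Genes of dormancy and PI3K signalling and of contact with granulosa cells gave no call without the block. None of 14 and 10 tested passed in edgeR, with 3 unadjusted p-values below 0.05 and 1 gene higher by DESeq2 in each list. The counts with the block were 3 higher and 2 lower, and 4 higher and 1 lower. Kit was counted in both lists, and Foxo3 also among the transcription factors. Mtor, the growth kinase, was at 38.3 and 31.0 against 15.98 and 19.54 CPM, a log2 fold change of 0.94 ± 0.18, and Tsc2, its inhibitor, at 39.9 and 36.7 against 23.1 and 26.6 CPM, 0.61 ± 0.13 (adjusted p = 0.0865 and 0.107, with the block 4.87e-05 and 0.000807). Kit, the receptor of the Kit ligand from granulosa cells, was at 229 and 159 against 172 and 135 CPM (log2 0.35, 0.41 and 0.000278). Gja4, the gap junction protein of the oocyte side, was at 225 and 206 against 210 and 209 CPM, with a log2 fold change of 0.04.

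Transcripts of the mitochondrial genome took a smaller share of UMIs in Zp3-high oocytes. Of 13 protein-coding genes, 12 were lower in both libraries, 1 was called lower without the block, 12 with it and 5 by DESeq2, at a median log2 fold change of -0.40. mt-Nd1, of complex I, was at 1646 and 1509 against 2664 and 2450 CPM, a log2 fold change of -0.70 ± 0.08 (adjusted p = 0.0414 and 9.2e-13 with the block). mt-Co3, of complex IV, was at 5165 and 5430 against 6852 and 7125 CPM (log2 -0.40, 0.0666 and 1.51e-09), and mt-Co1, also of complex IV, at 3115 and 3704 against 3521 and 3946 CPM (log2 -0.13, 0.542 and 0.00397). As CPM are shares of all UMIs, they were set beside the mean UMIs per cell. mt-Nd1 had 138.3 and 97.0 UMIs per Zp3-high cell against 150.6 and 121.7 per Zp3-low cell, a smaller difference than in CPM. For mt-Co1 the direction turned, with 261.8 and 238.1 UMIs per Zp3-high cell against 199.0 and 196.0 per Zp3-low cell. All 13 genes together had 2038 and 1674 UMIs per Zp3-high cell against 1751 and 1644 per Zp3-low cell. The smaller share of the list was thus not a smaller number per cell. In replicate 2, mt-Nd1 was found in 95.8% of Zp3-high cells, against 100% in replicate 1.

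Proteostasis genes, which encode chaperones, chaperonins and proteasome subunits, gave no call without the block. None of 38 tested passed in edgeR, 11 had an unadjusted p below 0.05, 2 were higher by DESeq2, and 7 were higher and 15 lower with the block, at a median of -0.07. Hspa8 was at 1304 and 1220 against 1462 and 1467 CPM (log2 -0.21) and the chaperonin Cct2 at 459 and 400 against 566 and 482 CPM (log2 -0.29). The endoplasmic reticulum genes Calr and P4hb went the other way, at 376 and 482 against 293 and 314 CPM and at 197 and 207 against 120 and 147 CPM (log2 0.50 and 0.59). Among 15 genes of glycolysis, none passed in edgeR, 5 had an unadjusted p below 0.05, 1 was higher by DESeq2, and 7 were higher and 1 lower with the block. Hk1, the first enzyme of glycolysis, was at 22.5 and 30.1 against 8.28 and 12.4 CPM (log2 1.29, 0.0913 and 2.83e-07), and Ldhb, which turns lactate into pyruvate, at 2467 and 2733 against 1945 and 2224 CPM (log2 0.32).

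Within the Zp3-high cells, several of the genes described above varied with the Zp3 share and others varied less. The oocytes were grouped by Zp3 share, which gave 62, 75 and 29 Zp3-high cells of replicate 1 and 129, 88 and 21 of replicate 2 at 0.05% to 0.1%, 0.1% to 0.2% and above 0.2%. Median UMIs rose over these groups, from 78158 to 88843 and 100151 in replicate 1 and from 66458 to 73226.5 and 81469 in replicate 2. The values that follow are shares of the summed UMIs of each group, given as a description.

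Zar1 went from 36.3 to 144 and 569 CPM in replicate 1 and from 97.1 to 330 and 785 CPM in replicate 2. Eif4e1b went from 4.18 to 16.5 and 81.0 CPM and from 10.8 to 44.1 and 133 CPM. Khdc3 went from 111 to 192 and 587 CPM and from 102 to 252 and 561 CPM. Both libraries thus had their highest levels of these 3 genes in the few cells with the highest Zp3 share, and the step into the top group was the largest in absolute terms. Npm2 rose from 218 to 436 and 1006 CPM and from 284 to 642 and 1074 CPM, also with its largest absolute step into the top group. Dnmt1 went from 64.9 to 107 and 390 CPM and from 65.95 to 101 and 222 CPM. Nobox rose in order but less, from 585 to 640 and 674 CPM and from 542 to 633 and 695 CPM. Figla stayed between 1117 and 1133 CPM in replicate 1 and between 987 and 1039 CPM in replicate 2.

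The shares of Sycp1 and mt-Nd1 went down over the same groups. Sycp1 went from 202 to 196 and 136 CPM in replicate 1 and from 149 to 129 and 82.5 CPM in replicate 2. mt-Nd1 went from 1849 to 1621 and 1370 CPM and from 1582 to 1352 and 1283 CPM. In UMIs per cell, mt-Nd1 was nearly level, at 135.6, 140.4 and 138.8 in replicate 1 and 99.7, 92.4 and 99.95 in replicate 2. Sycp1 was at 14.8, 17.0 and 13.8 UMIs per cell in replicate 1 and at 9.41, 8.84 and 6.43 in replicate 2, so that its number per cell went down in order in replicate 2 only. The trends began among the Zp3-low cells, where Zp1, for example, was at 44.6 and 32.0 CPM below 0.01% Zp3 and at 89.2 and 116 CPM from 0.01% to 0.05%, with only 15 cells in the lowest group of replicate 1. In thinned cells the top group was still the highest, with Zar1 at 528 and 829 CPM and Zp1 at 731 and 886 CPM.

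**Figure D4:**
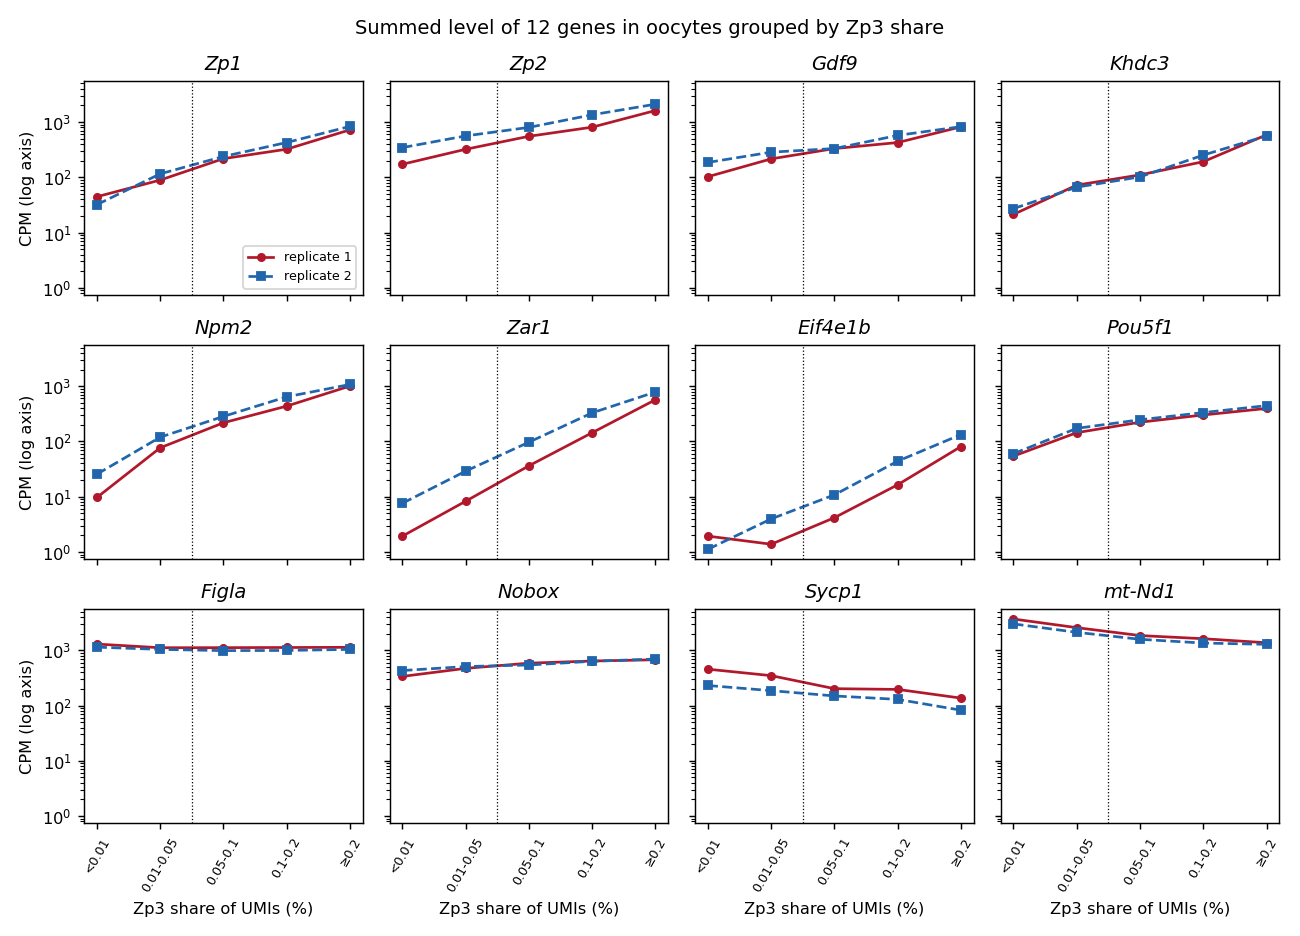
Summed level in CPM, on a log axis shared by all panels, of 12 genes in oocytes grouped by Zp3 share in percent, with a line for each library and a dotted line at the 0.05% threshold. Zar1 reaches 569 and 785 CPM in the top group, Figla stays between 987 and 1296 CPM in all groups, and Sycp1 and mt-Nd1 are lowest in the top group.

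Against somatic cells, 15681 genes were tested, of which 4438 (28.3%) were more than 2-fold higher and 5090 (32.5%) more than 2-fold lower in Zp3-high oocytes at an adjusted p below 0.05. The higher genes include Zp3 and all oocyte genes of the rule, whose difference the choice of the classes fixed. Of the genes tested, 1647 reached the filter through the Zp3-high and 2250 through the somatic sums alone, and these are again left out of the counts for lists. Of the other 11784 genes, 2910 were higher and 3040 lower by the same criteria. Among the rest, both zona genes, 5 of 5 subcortical complex genes, 10 of 10 piRNA genes, 12 of 14 maternal-effect genes and 9 of 14 meiotic prophase genes were higher. Zp1 was at 0.874 and 1.46 CPM in the somatic sums, a log2 fold change of 8.34 (adjusted p = 0.00018). Among genes at 20 CPM or more in Zp3-high sums, the 10 with the largest fold were Gm26754, Gm43303, Foxr1, Rhox1, Rab25, Rbmxl2, 2410141K09Rik, Mei1, Oas1d and Zp1. Foxr1, a forkhead factor, was at 106 and 119 CPM against 0.197 and 0.355 CPM in somatic sums, which rest on 7 and 10 UMIs. Rab25 and Rbmxl2 were as low there, with 7 and 4 and with 4 and 2 UMIs. Foxr1, Rab25 and Rbmxl2 lay below the filter of 0.455 CPM in both somatic sums and entered this test through the Zp3-high sums alone. They could hardly come out lower. Of the 10, only Zp1 is given here with somatic values above the filter in both libraries. The same limit can hold for the genes whose somatic values are not given, so the list of 10 is a description only. CPM in this comparison are scaled over Zp3-high and somatic sums and so differ slightly from those above.

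Foxr1, Rab25 and Oas1d also separated the oocyte classes. Foxr1 was at 111.5 and 115.7 CPM against 59.9 and 51.3 CPM in Zp3-low oocytes, a log2 fold change of 1.04 (adjusted p = 0.0383 and 1.39e-09 with the block), and Rab25, a small GTPase, at 65.2 and 65.8 against 34.2 and 35.3 CPM (0.0383 and 1.92e-07). Oas1d, an oligoadenylate synthetase homologue of oocytes, was at 452 and 630 against 176 and 327 CPM (0.157 and 1.7e-11). Rbmxl2 was at 33.5 and 37.4 against 31.7 and 37.6 CPM, and so overlapped. Gm26754 differed between the libraries instead, at 243 and 63.3 against 199 and 63.5 CPM.

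The genes lower in Zp3-high oocytes than in somatic cells included Ldha, the lactate dehydrogenase of most tissues, at 8.19 and 16.2 against 304 and 246 CPM, a log2 fold change of -4.49 (adjusted p = 0.000633), while Ldhb was at 2350 and 2801 against 368 and 487 CPM (log2 2.59, 0.000545). Hspa5, the main chaperone of the endoplasmic reticulum, was at 102 and 131 against 666 and 523 CPM (log2 -2.35, 0.000691). Hsp90aa1, a cytosolic chaperone, was at 1892 and 1889 against 499 and 444 CPM (log2 2.00, 0.000407). Of 15 glycolysis genes without Hk2, which entered through the somatic sums alone, 1 was higher and 7 lower, and of 39 proteostasis genes 7 were higher and 8 lower, at medians of -0.27 and 0.12. Of 13 mitochondrial genes, 3 were called lower and none higher, at a median of -0.56.

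Markers of other ovarian cell types took small shares of the UMIs in the Zp3-high sums. The 12 granulosa markers summed to 50.7 and 199.7 CPM in Zp3-high, 134 and 209.6 CPM in Zp3-low and 2537 and 1411 CPM in somatic sums, and Inha was the most abundant in Zp3-high sums. Inha had 0.801 and 3.29 UMIs per Zp3-high cell and 0.645 and 1.68 UMIs per Zp3-low cell. The 12 markers together had 4.27 and 13.2 UMIs per Zp3-high cell and 7.37 and 10.4 per Zp3-low cell. The 8 interstitial markers summed to 43.2 and 83.4 CPM in Zp3-high, 73.9 and 210.0 CPM in Zp3-low and 4525 and 7832 CPM in somatic sums, with Mfap4 as the most abundant. They had 3.64 and 5.53 UMIs per Zp3-high cell against 46.4 and 62.8 per somatic cell. Foxl2, a defining granulosa factor, was at 4.37 and 22.6 CPM against 13.98 and 26.67 CPM, and Col1a2, a fibrillar collagen, at 6.38 and 15.6 against 11.7 and 47.1 CPM. Both marker sums were higher in replicate 2 than in replicate 1 in both oocyte classes. In CPM both marker sums were lower in Zp3-high than in Zp3-low oocytes of the same library, but Inha in replicate 2 was higher in Zp3-high oocytes, as were the UMIs per cell of all 12 granulosa markers in that library.

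Of the granulosa and interstitial markers, 9 and 7 did not enter the test through 1 class alone. None of these passed in edgeR between the oocyte classes, with 0 and 2 unadjusted p-values below 0.05 and none called by DESeq2, and 4 and 7 were lower and 1 and 0 higher with the block. The part of attached cells, doublets or free RNA in this was not tested. Mesothelial markers summed to 3.93 and 5.45 CPM, endothelial markers to 5.72 and 6.21 CPM and immune markers to 1.79 and 1.84 CPM in Zp3-high sums. Of these, 2 mesothelial and 1 endothelial marker entered the test through both classes. None of them passed in edgeR without the block or in DESeq2, with 0 and 1 unadjusted p-values below 0.05, and 1 of each kind was lower with the block. The same held for 2 erythroid markers, with 2 unadjusted p-values below 0.05 and both lower with the block. Erythroid markers summed to 6.51 and 20.1 CPM in Zp3-high and to 509 and 25.1 CPM in Zp3-low sums, where a single Zp3-low cell of replicate 1 held 1696 of the 1728 globin UMIs.

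**Figure D5:**
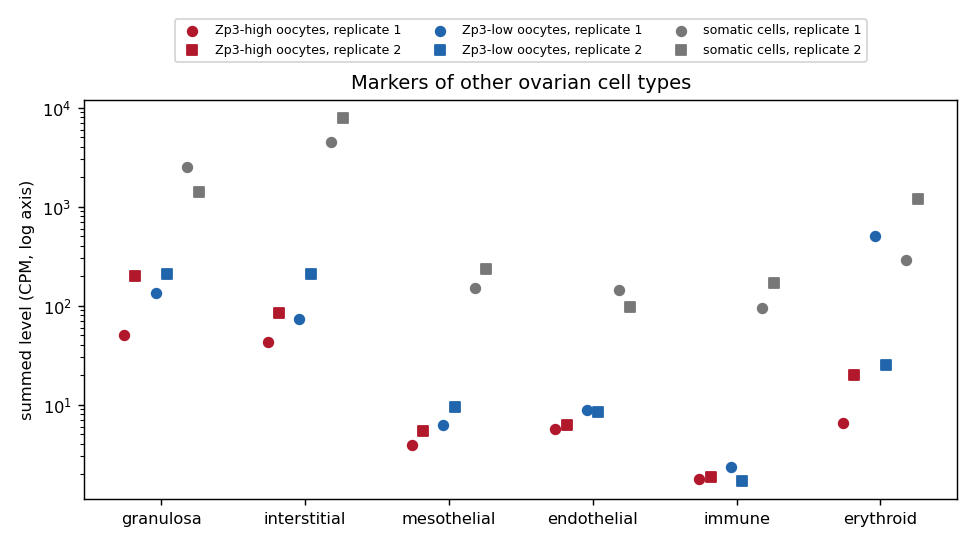
Summed level in CPM on a log axis of the markers of 6 other cell types in the sums of Zp3-high oocytes, Zp3-low oocytes and somatic cells, with circles for replicate 1 and squares for replicate 2. Oocyte sums lie below the somatic sums of the same library, except for the erythroid markers of Zp3-low oocytes in replicate 1, at 509 CPM.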

How the data were processed

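The authors made the deposited UMI counts per gene and cell with Cell Ranger (3.0.2, GRCm38, per the labels), without normalization. The labels name v2 chemistry and the methods v3. The filters and clustering of the study were not used here. Members and gene lists were chosen with earlier results of these data known. Counts were summed per library and class and tested with edgeR 4.0.16 (R 4.3.3: filterByExpr, TMM, glmQLFit, glmQLFTest), without a block in the main fit. CPM use TMM-scaled totals, except in marker sums and Zp3 groups, and SEs come from the fold change and its F value. The pairing comes from the shared library: replicate differences correlated by 0.597 between the classes over 13442 genes. Named genes beyond the lists were the 10 largest called changes each way (20 CPM, 1.5-fold in each library, without Zp3 and the 7 oocyte genes). Cells were thinned without replacement. Scrublet (scanpy 1.11.5) scored doublets, with replicate 1's threshold of 0.224 for both libraries, and marked cells were kept. Sums of Zp3-high and Zp3-low oocytes (13442 genes) were simulated separately for the fit without and with the block. Each simulation used the spread between sums (dispersion) estimated by its own fit, and only that for the block held a library effect. In these, 2-fold changes were recovered at 38.8% without and 92.5% with the block, and 4-fold changes at 100% with both. The settings differ, so these shares do not compare the fits on the same sums. Positions are from GENCODE, by Ensembl identifier. Depth per class and library was 3409870 to 35243365 UMIs.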

Additional observations from a re-analysis of the deposited data

How the results depend on the processing

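The number of genes that differed between Zp3-high and Zp3-low oocytes depended on the fit. Without the block it was 77 higher and 9 lower. With the replicate block it was 2187 and 1755, with DESeq2 379 and 130, and without a filter on low counts 630 and 180. Leaving out likely doublets gave 26 and 1, and cells of 20000 to 60000 UMIs gave 16 and 1. Classes set from thinned cells gave 48 higher, thinned cells gave 24 lower, a Zp3 threshold of 0.1% gave 4 lower, and a fold above 2 left 3 lower. Settings added after seeing the data joined the replicate block to thinning (489 and 277), to leaving out doublets (1820 and 1386) and to 20000 to 60000 UMIs (456 and 276). The cause was not tested. The counts against somatic cells stayed within 1.5 times under all alternatives run, the replicate block included. The share of Zp3-high cells followed the threshold, at 87.7% and 68.2% for 0.02% Zp3 and 45.6% and 22.95% for 0.1%. The ratio of genes per cell was 0.999 and 0.997 after thinning, where it was 1.12 and 1.10 before. Lhx8 turned to -0.305 among cells of 20000 to 60000 UMIs. Gja4, near 0, turned to -0.000673 with library sizes only, to -0.0306 at 0.1% Zp3 and to -0.164 among cells of 20000 to 60000 UMIs. Leaving out a library leaves 1 sum per class and no residual degrees of freedom, so that gave fold changes and no counts. Of 101 results followed, 15 were classed as moved without replicate 2 and 3 without replicate 1. Zar1 had a log2 fold change of 4.77 within replicate 1 and 3.66 within replicate 2, and Oosp2 of 4.21 and 2.76.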

Other observations

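Cells with the oocyte genes but fewer than 10000 UMIs numbered 22 in replicate 1 and 274 in replicate 2, with medians of 2303.5 and 2481 UMIs, and stand in no comparison. Their median Zp3 share was 0.0812% and 0.0229%, which rests on medians of 1.5 and 1 Zp3 UMIs per cell, too few to place a cell at the 0.05% threshold. Their mitochondrial share had medians of 0.545% and 0.889%, below the 2.32% and 2.45% of Zp3-high oocytes. Of the 15 Zp3-high cells above the doublet threshold, 10 were in replicate 1.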
